A study of Mus musculus with 18 samples.

Results

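The 10 genes described here are germline genes that somatic cells are known to keep repressed through DNA methylation of their promoters: Dazl, Ddx4, Mael, Sycp3, Sycp1, Stk31, Asz1, Rpl10l, Slc25a31 and Hormad1. They were chosen by symbol and matched to 10 of the 55487 genes of the count table. The expression values are RNA levels only, and DNA methylation was not measured in the libraries analysed here. All 10 genes passed the minimum of 10 counts over the libraries compared in each comparison.

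Germline genes are transcribed in primordial germ cells, spermatocytes or spermatids, and many of them carry CpG-rich promoters. In the early embryo these promoters gain DNA methylation around implantation, and in germ cells they lose it before meiosis. Chromatin repressors of the non-canonical Polycomb complex PRC1.6 and H3K9 methyltransferases are also known to hold such genes down in mESCs. A low level of germline transcripts is commonly seen in mESCs grown in serum.

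RNA was sequenced from ES-E14TG2a mouse embryonic stem cells (mESCs) kept in Serum/LIF, and from embryoid bodies (EBs), aggregates in which mESCs differentiate, at 48 hr and 96 hr. By the labels each stage held 3 IκBα-WT and 3 IκBα-KO samples. IκBα, encoded by Nfkbia, is the inhibitor that retains NF-κB in the cytoplasm. IκBα-KO cells were single-cell clones cut in exon 1 of Nfkbia with CRISPR, and IκBα-WT cells were clones that had received non-targeting guides, so that all cells had passed through transfection and cloning. The 6 mESC columns of the count table carry the genotype, while the 12 EB columns carry a clone code (D4, E14, E2, E3, H7 or H9) and the time only. KO was therefore compared with WT in mESCs alone, and EB libraries were compared by stage with both genotypes pooled.

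Total counts per library ranged from 28287582 to 40904247, and levels are given as CPM (library-scaled counts) after TMM scaling of the 18 libraries. Nfkbia, the targeted gene, was at 34.2, 35.1 and 25.3 CPM in WT clones 1 to 3 and at 10.2, 9.44 and 10.1 CPM in KO clones 1 to 3. It fell by 1.67 on the log2 scale (SE 0.14, adjusted p = 0.00489). Pluripotency markers were present in all mESC clones, Pou5f1 ranging from 881 to 970 CPM (log2 fold change 0.04). Zfp42 was at 677 to 747 CPM in WT and 836 to 1110 CPM in KO clones. It was the only 1 of 6 such markers to pass the edgeR test, as higher in KO (0.49, SE 0.11, adjusted p = 0.0478). KO clones differed among themselves. The 6 primitive endoderm markers summed to 77.1 and 123 CPM in KO clones 1 and 3, against 13.1 CPM in KO clone 2 and 11.2 to 15.6 CPM in WT clones. None of the 6 passed the test of KO against WT (1 of 6 trophoblast markers did), and none was at 0 on average. Their part in the results below was not tested.

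Promoter windows were read from RefSeq (GRCm38.p6), each running from 250 bases before to 50 bases after the annotated start, for all 10 genes. The windows held 13 (Rpl10l) to 38 (Ddx4) CpGs with a median of 23, against a median of 7 over 32841 windows of the same length. Observed over expected CpG ranged from 0.64 to 0.98 with a median of 0.79, against 0.38 over all windows. The hexamer TCCCGC, the core of E2F6-type sites, was searched on both strands and was present in 7 of the 10 windows and in 20% of all windows. The E-box CACGTG, which reads the same on both strands and can share at most 1 end base with TCCCGC, was present in 7 of the 10 windows and in 7.15% of all windows. Both motifs were present in 6 windows (Ddx4, Mael, Sycp3, Sycp1, Slc25a31 and Hormad1), and neither was present in those of Dazl and Asz1. Each motif holds a CpG, and the shares over all windows were not matched for CpG count.

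A window is printed 5′ to 3′ with CpGs in capitals, for each gene whose level differed between KO and WT mESCs. Hormad1 lies at chr3:95559427-95559726 on the plus strand and holds 24 CpGs, 1 TCCCGC (read as gcggga) and 2 CACGTG. Rpl10l lies at chr12:66284352-66284651 on the minus strand and holds 13 CpGs and 1 TCCCGC. Dazl lies at chr17:50293571-50293870 on the minus strand and holds 28 CpGs and neither motif. Sycp3 lies at chr10:88459337-88459636 on the plus strand and holds 15 CpGs, 1 TCCCGC (read as gcggga) and 2 CACGTG.
Hormad1: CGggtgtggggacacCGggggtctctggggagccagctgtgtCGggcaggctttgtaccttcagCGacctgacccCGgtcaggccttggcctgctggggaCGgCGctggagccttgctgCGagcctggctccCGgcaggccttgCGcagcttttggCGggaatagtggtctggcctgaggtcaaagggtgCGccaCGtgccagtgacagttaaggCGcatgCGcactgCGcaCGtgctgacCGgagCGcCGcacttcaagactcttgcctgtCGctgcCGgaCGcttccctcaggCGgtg
Rpl10l: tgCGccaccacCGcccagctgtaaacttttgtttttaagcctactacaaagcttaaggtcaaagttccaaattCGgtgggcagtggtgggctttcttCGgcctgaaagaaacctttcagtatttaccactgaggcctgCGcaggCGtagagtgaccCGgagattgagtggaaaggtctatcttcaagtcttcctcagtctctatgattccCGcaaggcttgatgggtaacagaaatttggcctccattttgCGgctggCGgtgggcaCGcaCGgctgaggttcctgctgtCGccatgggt
Dazl: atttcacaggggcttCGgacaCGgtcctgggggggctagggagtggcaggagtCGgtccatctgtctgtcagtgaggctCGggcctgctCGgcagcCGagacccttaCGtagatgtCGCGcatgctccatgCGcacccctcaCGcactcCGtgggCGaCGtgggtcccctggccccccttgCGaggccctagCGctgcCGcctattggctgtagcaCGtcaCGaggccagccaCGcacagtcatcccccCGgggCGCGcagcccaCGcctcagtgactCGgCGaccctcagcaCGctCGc
Sycp3: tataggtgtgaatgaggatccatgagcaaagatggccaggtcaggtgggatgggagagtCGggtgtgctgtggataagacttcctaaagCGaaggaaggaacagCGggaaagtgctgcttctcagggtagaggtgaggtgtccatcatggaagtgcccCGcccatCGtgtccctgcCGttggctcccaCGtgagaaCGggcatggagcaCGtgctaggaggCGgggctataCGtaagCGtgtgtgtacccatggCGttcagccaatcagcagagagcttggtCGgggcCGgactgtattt

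The first comparison asked which of the germline genes differ in IκBα-KO mESCs. Hormad1, Rpl10l and Dazl were higher in KO, Sycp3 was lower, and 6 genes did not pass the test. The test was the quasi-likelihood test of edgeR, with p adjusted (Benjamini-Hochberg) over 21843 genes and passed at an adjusted p under 0.05. Of all genes tested, 3.09% passed it as higher and 1.69% as lower, against 3 and 1 of the 10 germline genes. The 10 genes were chosen with earlier results of these data known, so these shares describe them and do not test the group. Differentially expressed genes (DEGs) had in addition an absolute log2 fold change over 1: 1.06% of all genes were DEGs with higher and 0.641% with lower expression in KO, and Hormad1 was the only DEG of the 10. The median log2 fold change was 0.59 over the 10 genes and 0.015 over all genes tested. In 6 of the 10 (Dazl, Stk31, Asz1, Rpl10l, Slc25a31 and Hormad1) each KO clone was above each WT clone, which held for 15.1% of all genes. The reverse held for 1 of the 10, Sycp3, and for 13.9% of all genes.

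**Figure D1:**
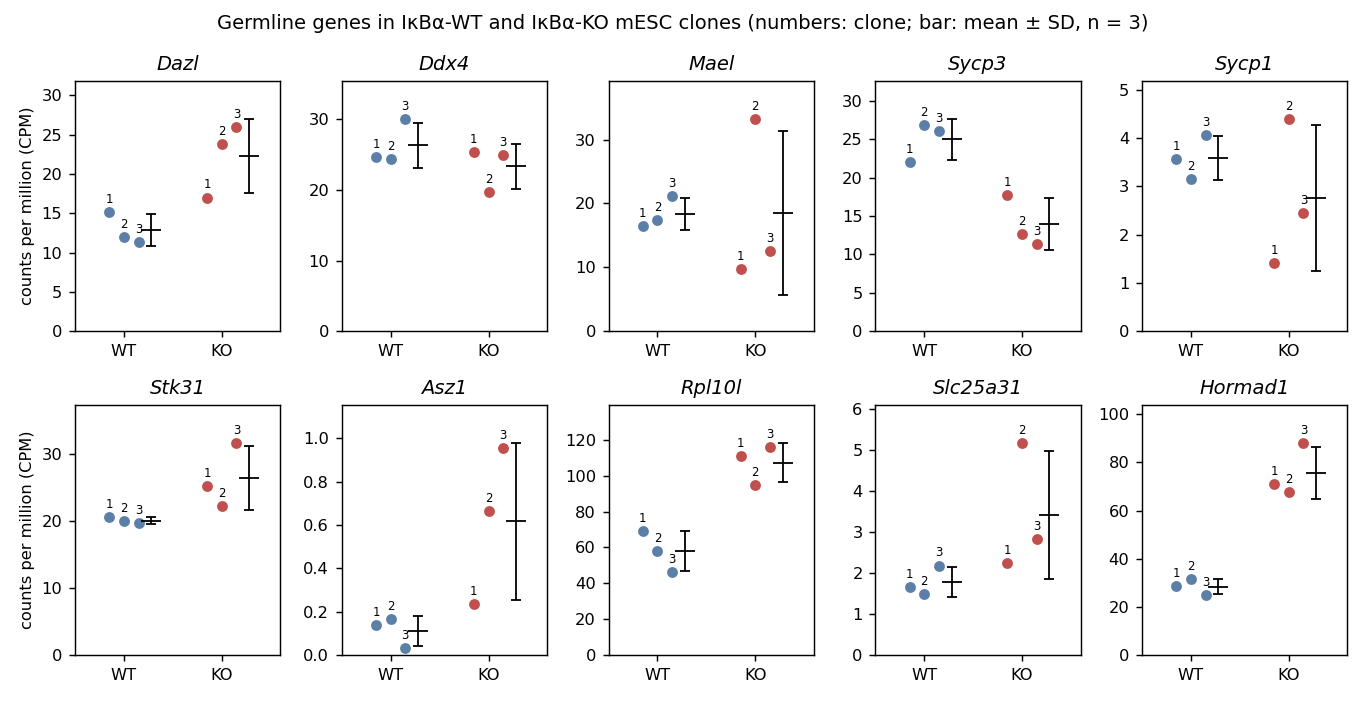
CPM (linear axes from 0) of the 10 germline genes in the 3 IκBα-WT (blue) and 3 IκBα-KO (red) mESC clones, numbered by clone, with mean ± SD beside each group (n = 3). For Hormad1 the KO clones sit at 67.6 to 88.1 CPM, above the WT clones at 25.0 to 31.5 CPM, while KO clone 2 sits apart for Mael at 33.2 CPM.

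Among the genes of the meiotic chromosome axis, Hormad1 and Sycp3 moved in opposite directions. Hormad1, a HORMA-domain protein of unsynapsed axes, was at 28.7, 31.5 and 25.0 CPM in WT clones 1 to 3 and at 71.1, 67.6 and 88.1 CPM in KO clones 1 to 3. The groups were well apart, with means of 28.4 ± 3.31 and 75.6 ± 11.0 CPM (SD, n = 3 each). The log2 fold change was 1.41 (SE 0.13, adjusted p = 0.00498), a 2.66-fold higher level in KO. Sycp3, a component of the axial and lateral elements, was at 22.0, 26.9 and 26.1 CPM in WT clones and at 17.8, 12.7 and 11.4 CPM in KO clones. The WT clones were all higher than any KO clone, and Sycp3 fell by 0.84 on the log2 scale (SE 0.17, adjusted p = 0.0356). The exons of Sycp3 overlap those of Chpt1, which lies on the opposite strand, over 660 of their 1264 bases, and the strand setting of the counting is not given in the sources used here. Chpt1, an enzyme of phosphatidylcholine synthesis, was at 12.6 to 14.5 CPM in WT and 15.9 to 18.2 CPM in KO clones. Each KO clone was thus above each WT clone, but Chpt1 did not pass the test (log2 fold change 0.37, SE 0.11, adjusted p = 0.101). Whether the overlap affected the counts of Sycp3 was not tested.

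Sycp1, the transverse filament protein of the synaptonemal complex, was at 3.56, 3.15 and 4.06 CPM in WT and at 1.41, 4.39 and 2.45 CPM in KO clones. The groups overlapped because KO clone 2 was the highest of the 6. The log2 fold change was -0.38 (SE 0.36, adjusted p = 0.590), and without KO clone 2 it was -0.88 (adjusted p = 0.0245).

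Both testis copies of somatic genes had higher means in KO, and Rpl10l passed the test. Rpl10l, an intronless copy of the ribosomal protein gene Rpl10 that is used in spermatocytes while the X chromosome is silent, was at 69.1, 58.1 and 46.5 CPM in WT and at 111, 94.9 and 116 CPM in KO clones. The log2 fold change was 0.89 (SE 0.15, adjusted p = 0.0191), or 1.85-fold. Rpl10 itself was at 1220 to 1350 CPM in WT and 1170 to 1310 CPM in KO clones (log2 fold change -0.09, adjusted p = 0.459). As Rpl10l is a close copy of Rpl10 and only uniquely mapped reads were counted, its level is uncertain to the extent that reads were lost or shared between both genes. Slc25a31, the ADP/ATP carrier of male germ cells, was at 1.66, 1.48 and 2.18 CPM in WT and at 2.23, 5.17 and 2.83 CPM in KO clones. Its groups did not overlap, but KO clone 2 lay well above the others and the difference did not pass the test (log2 fold change 0.94, SE 0.33, adjusted p = 0.145). Its somatic relative Slc25a5 was at 826 to 847 CPM in WT and 824 to 917 CPM in KO clones. Slc25a4, another somatic relative named after its value was seen, was at 110 to 129 CPM in WT and 155 to 229 CPM in KO clones. Slc25a4 passed the test as higher in KO (log2 fold change 0.73, SE 0.15, adjusted p = 0.0337).

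Among the RNA-binding and piRNA-related genes, Dazl alone passed the test. Dazl, an RNA-binding protein that controls translation in germ cells, was at 15.2, 12.0 and 11.4 CPM in WT and at 17.0, 23.8 and 26.0 CPM in KO clones. KO clone 1 was close to WT clone 1, and the log2 fold change was 0.79 (SE 0.18, adjusted p = 0.0478), just under the threshold. Ddx4, the germ-cell RNA helicase also called Vasa, was at 24.6, 24.4 and 30.0 CPM in WT and at 25.4, 19.7 and 25.0 CPM in KO clones. These groups overlapped (log2 fold change -0.17, SE 0.14, adjusted p = 0.511).

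Mael, a protein of the piRNA pathway that silences transposons, was at 16.5, 17.4 and 21.2 CPM in WT and at 9.71, 33.2 and 12.5 CPM in KO clones. KO clone 2 was above and KO clones 1 and 3 were below all WT clones, so that the log2 fold change was 0.01 (SE 0.39, adjusted p = 0.996). Without KO clone 2, Mael fell by 0.714 (adjusted p = 0.00405). Stk31, a testis protein with a Tudor domain, was at 20.5, 20.0 and 19.6 CPM in WT and at 25.2, 22.2 and 31.6 CPM in KO clones. The WT clones were close together and the KO clones all above them, with a log2 fold change of 0.39 (SE 0.14, adjusted p = 0.149). Asz1, a mitochondria-associated protein of the piRNA pathway, had 4, 5 and 1 counts in WT clones and 8, 27 and 35 counts in KO clones. This corresponds to at most 0.164 CPM in WT and to 0.235, 0.662 and 0.954 CPM in KO clones, and the log2 fold change of 2.44 (SE 0.66, adjusted p = 0.0724) rests on these few counts. Leaving out KO clone 2 raised the number of the 10 genes that passed the test from 4 to 8. Over all genes it raised those at an unadjusted p under 0.05 from 4713 to 6528 and the DEGs from 372 to 872. Without WT clone 2, 0 of the 10 genes passed, with 3104 of all genes at an unadjusted p under 0.05 and 0 DEGs.

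Levels between genes were compared per kilobase of exon. In WT clones the means were 56.6 CPM per kb for Rpl10l, 19.8 for Sycp3, 16.4 for Hormad1, 10.6 for Mael, 8.73 for Ddx4, 6.19 for Stk31, 3.38 for Dazl, 1.01 for Sycp1, 0.833 for Slc25a31 and 0.0392 for Asz1. The ranges of the clones overlapped between Sycp3 and Hormad1, between Mael and Ddx4 and between Sycp1 and Slc25a31, and not between the other neighbours of this order. In KO clones Rpl10l, at 105 CPM per kb, remained the highest and was followed by Hormad1 at 43.7, the means of the other 8 genes being between 0.218 and 11.1 CPM per kb.

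The other germ-cell genes were described by lists, also written with earlier results of these data known. Of all genes tested, 3.09% passed the test as higher and 1.69% as lower in KO. The counts of each list describe its genes beside these shares and do not test the list. Of 18 further genes of the piRNA pathway, 4 passed the test with higher and 0 with lower expression in KO, with a median log2 fold change of 0.13. The 3 DEGs among them were Fkbp6, a co-chaperone needed for piRNA biogenesis (1.56, SE 0.20, adjusted p = 0.00845), Gpat2 (1.39, SE 0.24, adjusted p = 0.0201) and Mov10l1, the piRNA precursor helicase (1.11, SE 0.20, adjusted p = 0.0237). The fourth gene, Piwil2, is named after its value was seen (0.92, adjusted p = 0.0320). Fkbp6 was at 6.34 to 7.68 CPM in WT and 16.3 to 27.4 CPM in KO clones, without overlap.

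Of 10 further genes of the synaptonemal complex, axis and meiotic cohesin, 3 were higher and 0 lower in KO, with a median of 0.65. Hormad2, the paralog of Hormad1, was at 4.79 to 7.66 CPM in WT and 12.3 to 25.9 CPM in KO clones (log2 fold change 1.53, SE 0.31, adjusted p = 0.0343). The others, named after their values were seen, were the meiotic cohesin subunit Stag3 (0.85, adjusted p = 0.0107) and the central element gene Syce2 (0.66, adjusted p = 0.0149). Of 7 testis copies of somatic genes that could be tested, 3 were higher and 0 lower, with a median of 1.09. These were Rpl39l (1.09, SE 0.18, adjusted p = 0.0182), Tuba3a (1.42, SE 0.26, adjusted p = 0.0249) and Tuba3b (2.80, SE 0.49, adjusted p = 0.0220), and the last pair are near-identical copies whose counts are uncertain in the same way as those of Rpl10l.

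Not every germ-cell list held genes that passed the test. None of 11 meiotic recombination genes, 12 regulators of germ-cell transcription and translation or 7 primordial germ cell genes did so, with medians of 0.19, 0.19 and -0.12. Dmc1, the meiotic recombinase, was at 7.66 to 9.18 CPM in WT and 7.58 to 21.4 CPM in KO clones, and Mei4 at 7.22 to 8.58 and 6.84 to 7.97 CPM. The regulator Dmrt1 was at 23.7 to 35.7 CPM in WT and 31.8 to 39.4 CPM in KO clones, and Sohlh2 at 14.1 to 22.8 and 17.4 to 27.8 CPM. The primordial germ cell genes Kit and Tfap2c had log2 fold changes of -0.12 and -0.48. Markers of 2-cell-like cells also held none that passed out of 5 (Zscan4d -0.34, Zscan4c -0.41).

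**Figure D2:**
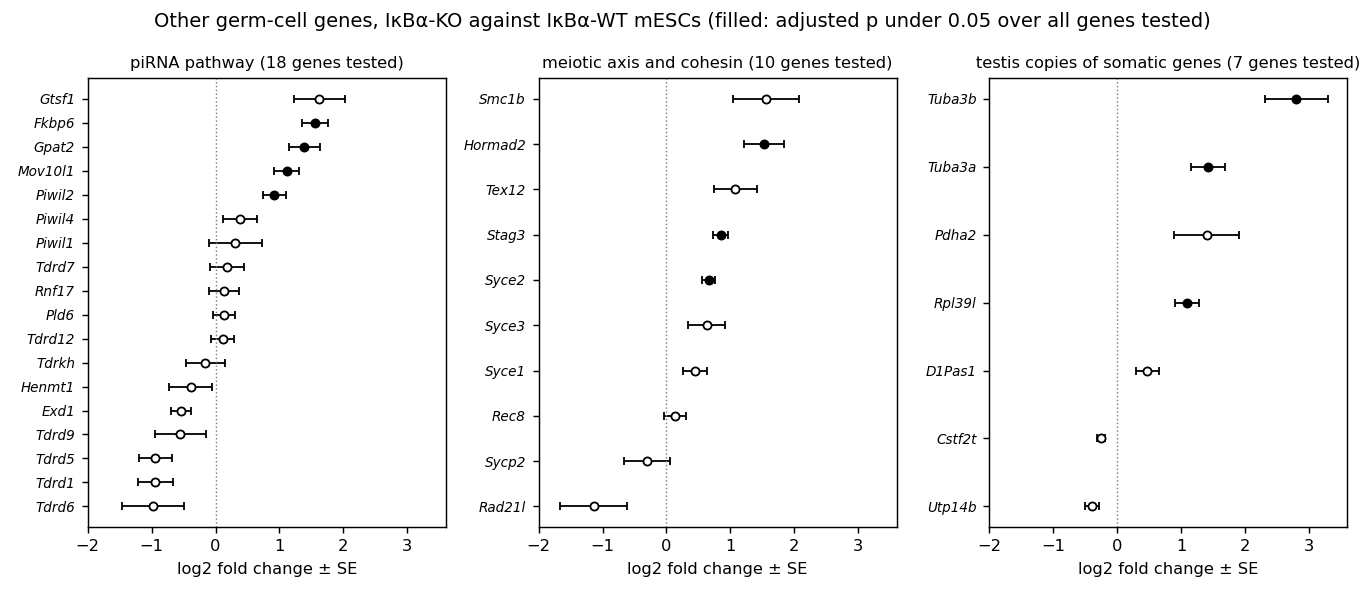
Log2 fold changes ± SE (edgeR) of IκBα-KO against IκBα-WT mESCs for the genes of 3 further germ-cell lists, filled where the adjusted p over all genes tested was under 0.05. In the piRNA pathway list 4 of 18 genes are filled, in the meiotic list 3 of 10 and in the list of testis copies 3 of 7, all to the right of 0. Of all genes tested, 3.09% passed as higher and 1.69% as lower. The lists were written with earlier results of these data known.

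Genes of the machinery that represses germline promoters were examined beside them, where 1.69% of all genes tested passed as lower and 3.09% as higher. Of 8 genes that write, maintain or remove DNA methylation, 1 passed the test as lower: Dnmt3b, a de novo methyltransferase, was at 577 to 887 CPM in WT and 354 to 426 CPM in KO clones (log2 fold change -0.91, SE 0.14, adjusted p = 0.0147). Tet1, which oxidizes 5-methylcytosine, was at 509 to 612 and 456 to 544 CPM (-0.18, adjusted p = 0.281). Of 15 genes of PRC1.6 and the H3K9 methylation machinery, 2 passed as lower and 0 as higher, with a median of -0.09. These were the corepressor Trim28 (-0.30, SE 0.07, adjusted p = 0.0452) and, named after its value was seen, the H3K9 methyltransferase gene Ehmt1 (-0.33, SE 0.07, adjusted p = 0.0337), neither of them a DEG. Mga, the DNA-binding subunit of PRC1.6, had a log2 fold change of 0.00. Whether these levels bear on those of the germline genes was not tested.

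The second question was how the germline genes change as mESCs form EBs. At 48 hr none of the 10 genes passed the test against mESCs (edgeR, 25318 genes tested), and at 96 hr 5 of them (Dazl, Mael, Sycp1, Stk31 and Rpl10l) were lower. All 5 were DEGs. Of all genes, 27.9% passed the test at 48 hr in either direction and 9.57% were DEGs. At 96 hr 22.7% passed with higher and 20.3% with lower expression, and 11.2% and 9.65% were DEGs. The median log2 fold change of the 10 genes was 0.15 at 48 hr and -1.18 at 96 hr, against 0.004 and -0.008 over all genes. At 48 hr 2 of the 10 genes had an unadjusted p under 0.05 (Sycp1 and Slc25a31, both with higher means), and the Wald test of DESeq2 also called 0. Both stages were compared with the same mESC libraries. In bulk RNA, fewer cells with a transcript and less of it per cell cannot be told apart.

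Levels in EBs varied widely between the 6 libraries of a stage, which hold both genotypes. Rpl10l ranged from 46.5 to 116 CPM in mESCs (median 82.0), from 18.8 to 98.4 CPM at 48 hr (median 67.4) and from 2.60 to 43.0 CPM at 96 hr (median 14.4). All EB libraries at 96 hr were thus below all mESC libraries, and the log2 fold change was -2.27 (SE 0.61, adjusted p = 0.00578). Hormad1 ranged from 25.0 to 88.1 CPM in mESCs (median 49.6), from 9.03 to 71.1 CPM at 48 hr (median 40.1) and from 0.865 to 37.2 CPM at 96 hr (median 13.0). Its stages overlapped and it did not pass the test at 96 hr (-1.68, SE 0.76, adjusted p = 0.0809).

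Dazl had medians of 16.1, 19.4 and 5.28 CPM in mESCs, at 48 hr and at 96 hr, and ranges of 11.4 to 26.0, 6.77 to 39.4 and 1.10 to 14.2 CPM. It was lower at 96 hr than in mESCs (-1.46, SE 0.53, adjusted p = 0.0324). Stk31 had medians of 21.3, 19.1 and 8.26 CPM, and each library at 96 hr (2.31 to 17.2 CPM) was below each mESC library (19.6 to 31.6 CPM), with a log2 fold change of -1.29 (SE 0.43, adjusted p = 0.0205). Mael had medians of 16.9, 22.9 and 8.32 CPM, and Sycp1 of 3.35, 5.38 and 0.959 CPM. Against mESCs they fell by 1.06 (SE 0.37, adjusted p = 0.0261) and by 1.45 (SE 0.46, adjusted p = 0.0150) on the log2 scale at 96 hr, with overlapping ranges in both cases.

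Slc25a31 and Asz1 did not differ from mESCs in a way that passed the test at either time. Slc25a31 had medians of 2.20, 5.16 and 1.82 CPM in mESCs, at 48 hr and at 96 hr. Asz1 had medians of 0.199, 0.215 and 0.0738 CPM, with 0 to 35 counts in mESC and 96 hr libraries and up to 69 counts at 48 hr, and 0 counts in 1 library at 96 hr, which allows up to 0.0786 CPM (3 counts, counting error only). Ddx4 and Sycp3 also passed no test against mESCs. Ddx4 had medians of 24.8, 19.5 and 17.4 CPM and Sycp3 of 19.9, 13.8 and 22.1 CPM, in the same order of stages.

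**Figure D3:**
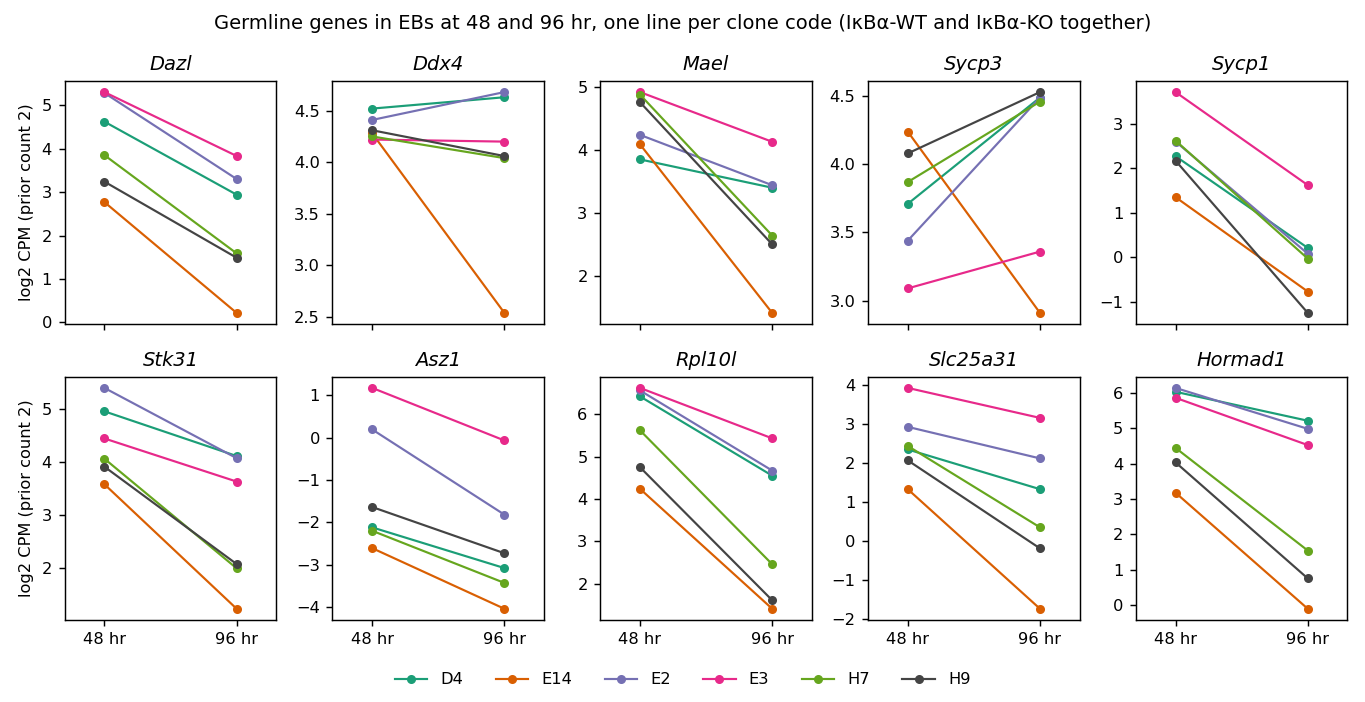
Log2 CPM (prior count 2; each panel has its own scale) of the 10 germline genes in EBs at 48 and 96 hr, with a line for each of the 6 clone codes, both genotypes together. For 8 genes all 6 lines fall, whereas Ddx4 falls in 4 of 6 and Sycp3 in 1 of 6 clone codes. The share of all genes with 6 falling lines was not computed.

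As each clone code appears at 48 hr and at 96 hr, the change between these times was also tested with the clone code as a block, a comparison chosen after the data were seen. In this test 8 of the 10 genes were lower at 96 hr and all 8 were DEGs, while 6.95% of the 23836 genes tested were DEGs with lower and 7.88% with higher expression. Without the block 2 of the 10 passed (Mael and Sycp1), the log2 fold changes of the other 6 being -1.12 to -1.83 with adjusted p from 0.0542 (Dazl) to 0.287 (Hormad1). The median over the 10 genes was -1.67, against 0.006 over all genes. Each of the 8 genes was lower at 96 hr in 6 of 6 clone codes. The share of all genes lower in 6 of 6 was not computed, so this count only describes the 8 genes.

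Sycp1 changed most between these times, with a log2 fold change of -2.50 (SE 0.22, adjusted p = 0.00014), and by clone code its difference ran from -3.42 to -2.06. Rpl10l changed by -2.28 (SE 0.29, adjusted p = 0.00125), Hormad1 by -1.99 (SE 0.41, adjusted p = 0.00825) and Dazl by -1.91 (SE 0.15, adjusted p = 0.00011). By clone code the differences of Dazl ran from -2.56 to -1.47 and those of Hormad1 ran from -3.30 to -0.82. Asz1 (-1.75, SE 0.34), Slc25a31 (-1.58, SE 0.33), Stk31 (-1.49, SE 0.22) and Mael (-1.49, SE 0.34) had adjusted p values of 0.00415, 0.00613, 0.00150 and 0.0117. Asz1 rests on few counts. In D4, E14, H7 and H9 it had 3 to 7 counts at 48 hr and 0 to 3 counts at 96 hr. In E2 it went from 32 to 8 and in E3 from 69 to 34 counts.

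Ddx4 and Sycp3 did not pass this test. Ddx4 had a log2 fold change of -0.26 (SE 0.24, adjusted p = 0.448), and Sycp3 of 0.36 (SE 0.29, adjusted p = 0.371). For both genes 1 library decided the value. The E14 library at 96 hr held 5.77 CPM of Ddx4 against 16.4 to 25.5 CPM in the others, and 7.45 CPM of Sycp3 against 10.2 to 23.1 CPM. Without this clone code the change of Ddx4 was 0.00777 (adjusted p = 0.959) and Sycp3 was higher at 96 hr (0.661, adjusted p = 0.00347). Chpt1, which overlaps Sycp3, changed by 0.12 (adjusted p = 0.539) in all 6 clone codes together.

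Markers of differentiation moved with the stages. The 9 early germ layer markers summed to 26.1 to 48.4 CPM in mESCs, 47.5 to 204 CPM at 48 hr and 74.9 to 1250 CPM at 96 hr, and 6 of the 9 rose between 48 and 96 hr in the test with the clone code as a block. The 6 pluripotency markers summed to 2990 to 3790 CPM in mESCs, 1640 to 2300 CPM at 48 hr and 658 to 1800 CPM at 96 hr. The part of the changing cell composition in the change of the germline genes was not tested. By adjusted p alone, 18.5% of all genes fell and 19.3% rose between 48 and 96 hr. By the same criterion 8 of the 18 other piRNA pathway genes fell and 4 rose, of which 7 and 3 were DEGs. Of the 10 meiotic axis genes 3 fell and 1 rose (2 and 1 DEGs). Of the 7 testis copies 6 fell and 0 rose (5 and 0 DEGs). Of the 8 DNA methylation genes 6 fell and 1 rose (2 and 0 DEGs), the de novo enzyme Dnmt3b ranging from 740 to 2240 CPM at 48 hr and from 865 to 1570 CPM at 96 hr (log2 fold change -0.08, adjusted p = 0.866).

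**Figure D4:**
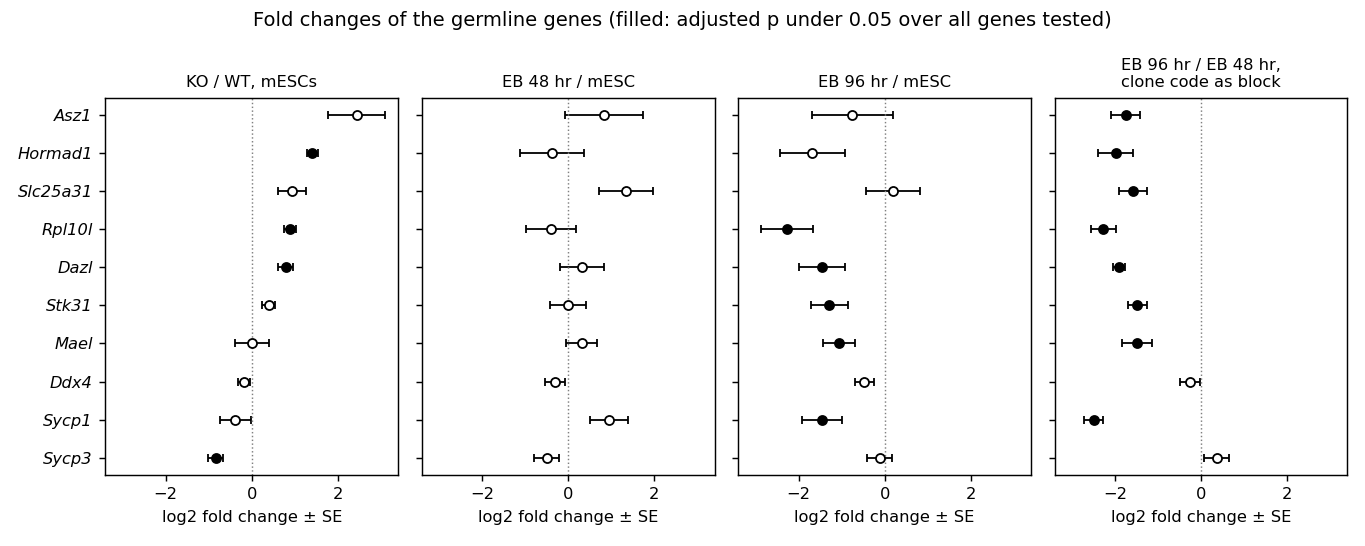
Log2 fold changes ± SE (edgeR) of the 10 germline genes in the 4 comparisons, filled where the adjusted p over all genes tested was under 0.05, with genes ordered by their change in KO against WT mESCs. Filled points number 4 in KO against WT, 0 at 48 hr and 5 at 96 hr against mESCs, and 8 between 48 and 96 hr with the clone code as a block.

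Of the 10 genes, 9 varied together across libraries and Sycp3 did not. Over the 18 libraries the log2 CPM of each gene was correlated with the mean of the other 9, as a description across libraries that share stages, clones and scaling. Pearson's r was highest for Dazl at 0.98, followed by Rpl10l at 0.94, Stk31 at 0.93, Hormad1 at 0.92, Mael and Slc25a31 at 0.83, Sycp1 at 0.80, Asz1 at 0.70 and Ddx4 at 0.68, and it was -0.18 for Sycp3. Over the 12 EB libraries alone it ranged from 0.70 to 0.98 for 9 genes and was -0.23 for Sycp3. The range of r over all other genes is not given here, so these values have no background. Among the 5 genes outside the group whose log2 CPM was most like its mean over the 18 libraries were Tex13c2 (r = 0.981), Gm12690 (0.980), Aplp1 (0.980) and Platr17 (0.970).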

How the data were processed

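RNA-seq counts of 18 libraries of the mouse line ES-E14TG2a were analysed. By their methods and processing notes the authors trimmed reads with Trim Galore 0.6.6, aligned them to GRCm38 (mm10) with STAR 2.7.8, used featureCounts (Subread 2.0.1) to count uniquely mapped exonic reads and deposited whole-number counts per gene without normalization. Their normalized table was not used. With 55487 genes and 28287582 to 40904247 counts per library, depth limits only genes with few counts, and intervals and floors cover counting error only.

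Sample groups follow the labels. The names of 12 EB columns show a clone code and a time but no genotype, so these libraries entered by stage only, and no genotype was inferred from their values. After a minimum of 10 counts summed over the compared libraries, genes were tested in R 4.3.3 with edgeR 4.0.16 (TMM, robust quasi-likelihood test, Benjamini-Hochberg over all genes tested). The SE is the size of the log2 fold change over the root of F. KO against WT used the 6 mESC libraries and stages used all 18 with 3 levels. The comparison of 96 with 48 hr used the 12 EB libraries with the clone code as a block and was added after the column names and the counts were seen. The block rests on the shared codes, whose libraries deviated together (correlations of 0.396 to 0.734). Since the clones of a genotype come from 1 line, p-values of KO against WT measure the spread between clones. The stage test took the 18 libraries as independent, with the genotype difference left in the spread. The test with the block measures the spread of the change between clone codes. No pair of libraries of the same group agreed within sampling noise. The scripts were tested on simulated data.

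Gene symbols, positions and exon lengths came from an annotation of GRCm38, and promoter windows from RefSeq (GRCm38.p6). Genes named are the 10 germline genes, Nfkbia, the 5 genes most correlated with their mean (1 of which is not reported here) and, of each list, the DEGs of KO against WT or else the 2 genes with the highest mean CPM. The members and lists were chosen with earlier results of these data known. Alternatives were DESeq2 1.42.0 (size factors, Wald test), other count filters, a prior count of 0.5, a 10 Mb window offset, a replicate block, mESCs as 2 groups, adjusted p only, and each clone left out.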

Additional observations from a re-analysis of the deposited data

Results flagged for a closer look

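The 10 germline genes were examined for single libraries far from the others of their group, in 20 groups of 6 EB libraries, of which chance alone would be expected to mark about 1 in 20. One was marked: Ddx4 at 96 hr, where the E14 library held 5.77 CPM and the nearest of the other libraries 16.4 CPM. The gap was 0.7 of the whole range of the group on the log2 CPM scale, which is more than Dixon's 95% limit for 6 libraries.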

How the results depend on the processing

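Under DESeq2 size factors and the filterByExpr filter the number of DEGs and of germline genes among them stayed within 1.5 times of the values given in KO against WT and in both comparisons with mESCs, and these settings were not run for 96 against 48 hr. In KO against WT, the DEGs numbered 372 and were 570 with the Wald test of DESeq2 and 1046 by adjusted p only. The germline genes among them numbered 1 and were 2 with the Wald test and without the low-count filter (Asz1 joining Hormad1) and with the 10 Mb window offset (Rpl10l joining it), and 4 by adjusted p only. Leaving out each clone gave 0 (without WT clone 2) to 872 (without KO clone 2) DEGs, and 0 to 2 germline genes. Hormad1 lost its call only without WT clone 2 (adjusted p = 0.0633). Dazl, also lost with the filterByExpr filter (adjusted p = 0.0501), Sycp3 and Rpl10l each lost theirs without 4 of the 6 clones in turn, at the same direction. Mael, which ranged from -0.714 to 0.306 as each clone was left out, changed direction without WT clone 1 (-0.0607), without WT clone 2 (-0.0368), without KO clone 2 (-0.714) and with the replicate block (-0.195). The replicate numbers do not pair the mESC clones (correlations of -0.117, -0.00783 and -0.0284), and the block ended the calls of Dazl (adjusted p = 0.0927) and Sycp3 (0.0529). By adjusted p only, 7053 genes passed at 48 hr and 10894 at 96 hr against mESCs, and 8994 between 48 and 96 hr. Without the clone code block 2270 genes and 2 germline genes were DEGs between 48 and 96 hr. Stk31 at 48 hr against mESCs was 0.00174 with mESC genotypes as 2 groups, and Ddx4 between 48 and 96 hr ranged from -0.371 to 0.00777 as each clone code was left out, the latter without E14. Dazl at 96 hr against mESCs had an adjusted p of 0.0636 without the low-count filter. The causes were not tested.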

Other observations

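The summed level of the 10 germline genes in EBs differed between clone codes, to which no genotype is assigned here. At 48 hr it was 267 CPM for D4, 107 for E14, 311 for E2, 305 for E3, 176 for H7 and 140 for H9. At 96 hr it was 146 CPM for D4, 23.4 for E14, 148 for E2, 151 for E3, 61.8 for H7 and 58.1 for H9. The 9 early germ layer markers summed at 96 hr to 139 CPM for D4, 1250 for E14, 141 for E2, 74.9 for E3, 839 for H7 and 1130 for H9. In mESCs, whose clones are not matched to these codes, the 10 germline genes summed to 202, 195 and 186 CPM in WT clones 1 to 3. They summed to 281, 284 and 317 CPM in KO clones 1 to 3.

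KO clone 2, in which Mael, Sycp1 and Slc25a31 were highest, also held the most of the 5 markers of 2-cell-like cells. They summed to 40.3 CPM, against 16.4 and 23.7 CPM in KO clones 1 and 3 and 32.3 to 35.0 CPM in WT. This clone also had the highest sums of all mESC clones for the piRNA pathway (364 CPM) and meiotic axis lists (423 CPM). The same held for meiotic recombination genes (49.8 CPM) and germ-cell regulators (134 CPM), but not for primordial germ cell genes or testis copies. Whether these levels are related was not tested. In a window of 10 Mb around Rpl10l, the median log2 difference of 25 genes from the WT mean lay at -0.42 for KO clone 2 and at -0.05 and -0.06 for the other KO clones, while Rpl10l itself was 0.73 above the WT mean in that clone.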
